A study of Caenorhabditis elegans with 6 samples.

Results

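The genes of the RNA-dependent RNA polymerases of the nematode Caenorhabditis elegans, and those of 3 partner proteins, were examined as targets of the small RNAs bound by WAGO-4, a cytoplasmic Argonaute. The genes were chosen by name for what their proteins do. They are the 4 polymerase genes ego-1, rrf-1, rrf-2 and rrf-3, the helicase gene drh-3, the Tudor domain gene ekl-1 and the nucleotidyltransferase gene cid-1. These are 7 of the 45510 genes listed in the count tables, and each of them has a line in all 6 libraries.

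Small RNAs were precipitated with an antibody against the FLAG tag from whole young adults of the genotype 3xFLAG::GFP::WAGO-4, kept at 20 °C, and sequenced. The libraries, 1 per group, came from animals after RNAi of lin-15b, from P0 animals exposed to oma-1 double-stranded RNA (dsRNA), from the F1 and F3 descendants of such animals, from animals on the bacterial strain HT115 without oma-1 dsRNA, and from a first set of untreated animals. The tagged WAGO-4 is thus shared by all groups, including those without RNAi. The labels do not say how the tag was introduced, each library pools many animals, and no untagged strain or input RNA was analysed here. All samples are labelled young adults, but the growth notes of the HT115 and P0 samples also describe embryos held at several temperatures, those of F1 and F3 describe larvae on plates without food, and those of F3 describe embryos exposed to ultraviolet light. These notes cannot be reconciled with the stage label from the sources used here. With 1 library per group there is no replicate check and no test of any difference. All intervals are at 95% and describe counting error alone. Reads copied by amplification and not tagged by molecule are not independent, so even this error is understated.

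In C. elegans, silencing is amplified by polymerases that copy a targeted messenger RNA into short antisense RNAs, which are then loaded onto Argonautes such as WAGO-4 and CSR-1. EGO-1 is the essential germline polymerase and RRF-1 a related one that works in somatic cells and, with EGO-1, in the germline. RRF-3 acts earlier, with Dicer and the ERI proteins, and animals without it are unusually sensitive to RNAi. RRF-2 is the least well characterised of the family. DRH-3 is a Dicer-related helicase and EKL-1 a Tudor domain protein, both needed for the polymerases to make small RNAs. CID-1, also called CDE-1 or PUP-1, adds uridines to the ends of small RNAs of the CSR-1 pathway. A read antisense to one of these genes is therefore a small RNA directed against the gene's own transcript. It is not a measure of the transcript or of the protein.

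The 6 libraries held 8667735 to 11309227 reads assigned to genes. In the 5 libraries with a sense and an antisense column, 55.6% to 77.8% of the reads were antisense, and the F1 library had the lowest share. The first untreated library has 1 column with no stated strand, and its counts were taken to hold sense and antisense reads together. The RNAi targets were high in the libraries named for them, where oma-1 had 1440 antisense reads per 1000000 in P0 animals, 317 for F1 and 197 for F3, against 96.5 on HT115. On both strands, lin-15B was 6.66-fold higher after lin-15b RNAi than in the first untreated library. Of marker genes for the tissues of a whole animal, 6 of 6 germline genes reached 25 antisense counts per 1000000 (CPM, reads per 1000000 antisense reads of the library) on HT115. That level was reached by 1 of 4 sperm genes, 0 of 4 intestine genes and 0 of 3 muscle genes, and spe-38 and msp-142 had 0 antisense reads. On antisense reads these lists describe which transcripts WAGO-4 small RNAs match and not which cells were present. Intestine and muscle genes did have sense reads, which made up 97.7% to 99.99% of the reads of these lists in the 5 libraries with separate strands.

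The 7 genes are spread unevenly over the genome. Positions are those of the Ensembl annotation of WBcel235, since the build behind the counts is not given in the sources used here. On chromosome I lie ego-1 (WBGene00001214, I:7650341-7656338, minus strand), rrf-1 (WBGene00004508, I:7643431-7649777, minus strand) and rrf-2 (WBGene00004509, I:12098664-12106112, minus strand). The partner genes drh-3 (WBGene00008400, I:7820831-7826378, plus strand) and ekl-1 (WBGene00009052, I:7095486-7098400, plus strand) are on the same chromosome. The other two are rrf-3 (WBGene00004510, II:8162465-8168651, plus strand) and cid-1 (WBGene00019629, III:5173922-5180507, plus strand). Chromosome I thus holds 5 of the 7 genes, and 14.4% of all protein-coding genes. The genes ego-1 and rrf-1 lie in tandem on the same strand, 563 bases apart. They are related in sequence, and how the authors counted reads that match both is not given in the sources used here, so a part of the reads of either gene may belong to its neighbour.

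All of the genes reached 25 CPM on HT115. Together they took 0.198% of the antisense reads after lin-15b RNAi (Wilson interval 0.194 to 0.201) and 0.228% on HT115 (0.224 to 0.231). Among the dsRNA generations that share was 0.246% for P0 (0.242 to 0.2499), 0.225% for F1 (0.221 to 0.229) and 0.225% for F3 (0.221 to 0.228). Of both strands, the genes took 0.157% after lin-15b RNAi and 0.171% in the first untreated library. Fewer cells with such small RNAs and fewer small RNAs per cell cannot be told apart in precipitates from whole animals.

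Among the polymerases, ego-1 had the most reads. Its antisense level was 471 CPM after lin-15b RNAi and 553 on HT115, then 612 in P0 animals, 557 in F1 and 552 in F3. The F1, F3 and HT115 levels lay within each other's Poisson intervals, which ran from 535 to 578. The P0 library was the highest, at 612 CPM (593 to 632), and the lin-15b RNAi library the lowest on this scale, at 471 CPM (455 to 488). CPM levels after lin-15b RNAi depend on the scaling. With median-of-ratios and TMM scaling, given further on, the ego-1, rrf-1 and ekl-1 levels would lie above HT115.

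The level of rrf-1 was summed over transcripts that share exons. It was 336 CPM after lin-15b RNAi and 386 on HT115, then 409 in P0 animals, 346 in F1 and 349 in F3. As with ego-1, P0 was the highest library and lin-15b RNAi the lowest by CPM. The intervals of F1 (331 to 362), F3 (336 to 363) and lin-15b RNAi (322 to 350) overlapped one another and lay below that of HT115 (372 to 400).

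For rrf-3, the antisense level was 202 CPM after lin-15b RNAi and 281 on HT115, then 279 in P0 animals, 261 in F1 and 253 in F3. HT115 and P0 were nearly equal, F1 and F3 were slightly lower, and lin-15b RNAi was the lowest library by CPM, with an interval of 191 to 213. With median-of-ratios and TMM scaling its log2 ratio to HT115 was 0.02 and −0.03, against −0.50 by CPM.

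By far the weakest target was rrf-2, with 11.5 CPM after lin-15b RNAi and 31.0 on HT115, then 40.0 in P0 animals, 44.6 in F1 and 41.0 in F3. These levels rest on 76, 229, 241, 243 and 300 antisense reads in that order. The intervals of P0 (35.1 to 45.3), F1 (39.2 to 50.6) and F3 (36.5 to 46.0) overlapped one another, and those of F1 and F3 lay above that of HT115 (27.1 to 35.3). The lin-15b RNAi library stood well below all of them, at 9.07 to 14.4 CPM.

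Of the partners, cid-1 was the strongest and, by CPM, the only one of the 7 genes with its highest antisense level after lin-15b RNAi. Which genes are highest there depends on the scaling. It had 635 CPM after lin-15b RNAi and 543 on HT115, then 623 in P0 animals, 537 in F1 and 538 in F3. HT115, F1 and F3 could not be distinguished by their intervals (517 to 560 over these libraries), and neither could lin-15b RNAi (616 to 654) and P0 (603 to 643).

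The helicase gene drh-3 had 166 CPM after lin-15b RNAi and 286 on HT115, then 299.8 in P0 animals, 280.2 in F1 and 279 in F3. Its intervals overlapped in all 4 libraries from HT115 to F3, and the lin-15b RNAi library, at 156 to 176 CPM, was far below them by CPM. The size of that difference depends on the scaling. The Tudor domain gene ekl-1 had 154 CPM after lin-15b RNAi and 197 on HT115, then 196 in P0 animals, 221 in F1 and 233 in F3. Here F3 (222 to 244 CPM) was the highest library, and HT115 (187 to 208) and P0 (185 to 207) were nearly equal.

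**Figure D1:**
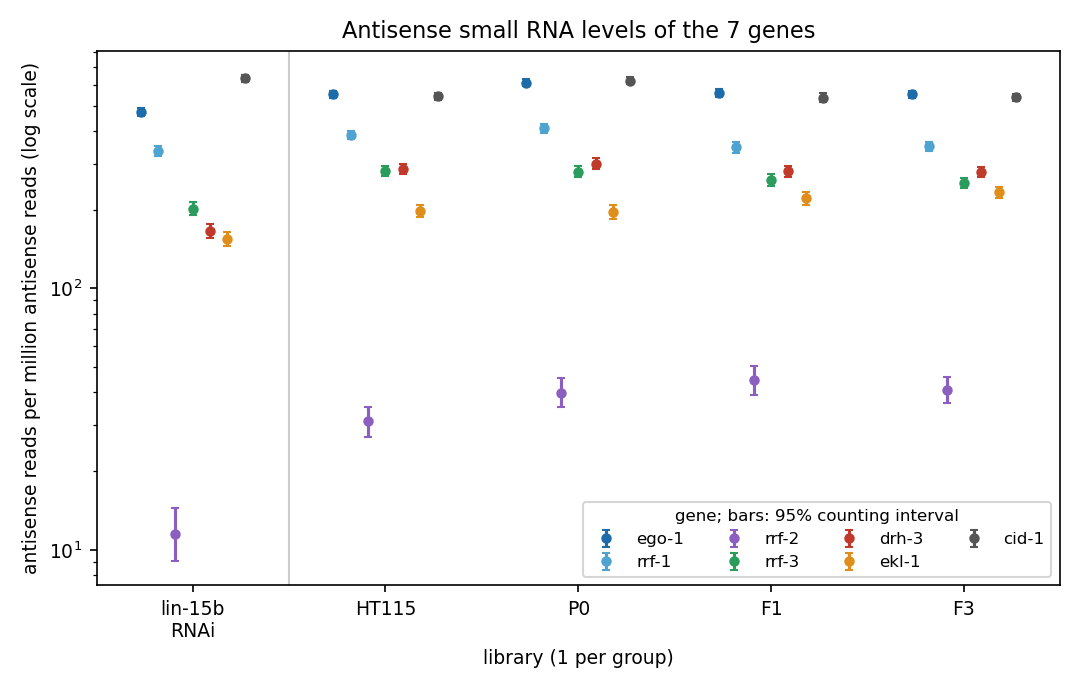
Antisense level of each gene (reads per 1000000 antisense reads, log scale) in the 5 libraries with separate strands, 1 library per group. Points are the levels and bars the exact 95% Poisson intervals, which cover counting error only. In every library 6 of the genes lie between 154 and 635 CPM, and rrf-2 lies between 11.5 and 44.6 CPM.

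To compare genes with one another, levels were divided by the length of the gene's exons. Per kilobase of exon on HT115, cid-1 had 113 CPM, ego-1 105, ekl-1 92.1, drh-3 81.4, rrf-1 76.8, rrf-3 50.9 and rrf-2 6.37. Only drh-3 and rrf-1 were neighbours in this order with overlapping intervals. The median over the 5393 protein-coding genes at 25 CPM or more was 72.9 CPM per kilobase, so cid-1, ego-1, ekl-1, drh-3 and rrf-1 were above it and rrf-3 and rrf-2 below. The rrf-1 count is a sum over transcripts that share exons. F26A3.8a, with 1427 of the 2852 antisense reads, alone covers 99.98% of the exon length. If shared reads were counted on each transcript, the rrf-1 level is overstated, and its rank and place above the median depend on this. The same holds for other genes with several transcripts. Of all 19605 protein-coding genes, 92.4% were lower than cid-1, 91.4% lower than ego-1, 80.6% lower than rrf-3 and 67.3% lower than rrf-2. Of all protein-coding genes, 27.5% reached 25 CPM.

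The order per kilobase changed little between libraries. In each of the 5 libraries with separate strands, cid-1 was first, rrf-3 sixth and rrf-2 last. The gene ego-1 was second except in F3, where ekl-1 (109 CPM per kilobase) and ego-1 (104) changed places with overlapping intervals. In F1, the intervals of cid-1 and ego-1 overlapped, as did those of ego-1 and ekl-1. After lin-15b RNAi, cid-1 (132 CPM per kilobase) was set further apart from ego-1 (89.1), and rrf-1 (66.9) stood above drh-3 (47.2). In the first untreated library, where only both strands together can be given, cid-1 was again the highest, at 120.3 CPM per kilobase, and rrf-2 the lowest, at 2.53.

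**Figure D2:**
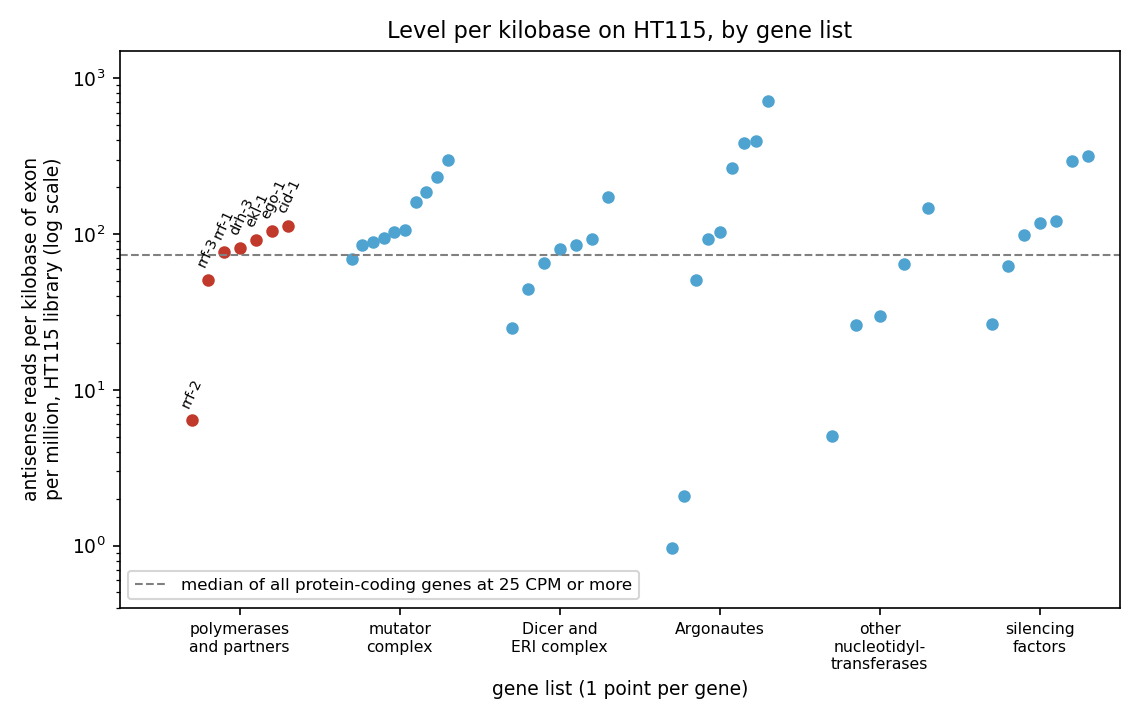
Antisense level per kilobase of exon on HT115 (log scale) for the polymerase and partner genes (red, named) and for the genes of 5 other lists of the small RNA pathway (blue), 1 point per gene. The dashed line is the median of the protein-coding genes at 25 CPM or more, 72.9. Of the red points, 5 lie above it, and rrf-2 lies at 6.37. The rrf-1 point is a sum over transcripts that share exons, and its place above the line depends on how shared reads were counted.

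Over the 4 libraries HT115, P0, F1 and F3, 5 of the 7 genes varied less than the median gene, rrf-1 by very little. Counting error widens this ratio for genes near 25 CPM, and all of the 7 but rrf-2 lay far above that level. The count therefore does not show these genes to be more stable than others. The highest level was 1.07 times the lowest for drh-3, 1.11 times for ego-1 and rrf-3, 1.16 times for cid-1, 1.18 times for rrf-1, 1.19 times for ekl-1 and 1.44 times for rrf-2. The median of this ratio was 1.19 over the 5934 genes at 25 CPM or more in the highest of these libraries, and 12.7% of them exceeded rrf-2. With the lin-15b RNAi library added, the median was 1.71 over 6055 genes, and the ratio was 3.86 for rrf-2, which 7.83% of the genes exceeded, and 1.81 for drh-3. It was 1.18 for cid-1 and 1.22 for rrf-1 by CPM, but with median-of-ratios and TMM scaling cid-1 differed between lin-15b RNAi and HT115 by log2 ratios of 0.72 and 0.67.

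The comparison of P0, F1 and F3 with HT115 asks whether small RNAs against the polymerase machinery changed while silencing of oma-1 was set up and passed on. None of the 7 genes differed from HT115 by 1.5-fold or more in any of these generations. Of all measured genes, those at 25 CPM or more in the higher library, 1.93% differed that much in P0, 4.18% in F1 and 5.22% in F3. A count of 0 of 7 is near what these shares would give, so it says nothing particular about the polymerase genes. The median log2 ratio of the 7 genes, with 0.5 added to each count, was 0.08 in P0, against 0.02 for all measured genes. It was −0.02 in F1, against −0.03, and −0.01 in F3, against −0.01. The P0, F1 and F3 ratios share the HT115 library and are not independent of one another.

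The largest ratio belonged to rrf-2 in each generation. It was 1.29-fold HT115 in P0 (1.07 to 1.55), 1.44-fold in F1 (1.197 to 1.73) and 1.33-fold in F3 (1.11 to 1.58). Of all measured genes, 95.6% had a lower ratio in P0, 97.4% in F1 and 94.3% in F3. The ratios of rrf-2 all use the same HT115 count of 229 antisense reads, so these percentages are not independent. Counting error also widens the ratios of genes with so few reads. These values depend on the strands counted and on the scaling. With both strands summed, the log2 ratio of rrf-2 in F1 was 0.06, against 0.53 for antisense reads. With median-of-ratios scaling it was 0.60, just past the 1.5-fold limit.

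Among the other polymerases, ego-1 was 1.11-fold HT115 in P0 (1.06 to 1.16), 1.01-fold in F1 (0.961 to 1.06) and 0.997-fold in F3 (0.954 to 1.04). The rrf-1 level was 1.06-fold in P0 (1.004 to 1.12), 0.898-fold in F1 (0.846 to 0.952) and 0.906-fold in F3 (0.858 to 0.956). That of rrf-3 was 0.992-fold in P0 (0.930 to 1.06), 0.927-fold in F1 (0.866 to 0.992) and 0.899-fold in F3 (0.844 to 0.958). For these polymerases, the P0, F1 and F3 levels stayed closer to HT115 than those of rrf-2.

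Of the partners, cid-1 was 1.15-fold HT115 in P0 (1.096 to 1.199), 0.988-fold in F1 (0.942 to 1.04) and 0.991-fold in F3 (0.948 to 1.04). The ekl-1 level was 0.993-fold in P0 (0.919 to 1.07), 1.12-fold in F1 (1.035 to 1.21) and 1.18-fold in F3 (1.10 to 1.27). That of drh-3 was 1.05-fold in P0 (0.984 to 1.12), 0.980-fold in F1 (0.917 to 1.05) and 0.977-fold in F3 (0.918 to 1.04), so that its interval held 1 in every generation. With both strands summed, the median log2 ratio of all measured genes in F1 was −0.19, and the 7 genes ran from −0.46 for rrf-1 to 0.06 for rrf-2. The F1 directions of ego-1 (−0.31) and ekl-1 (−0.18) and the P0 directions of rrf-1 (−0.03) and drh-3 (−0.03) were then opposite to those on antisense reads.

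**Figure D3:**
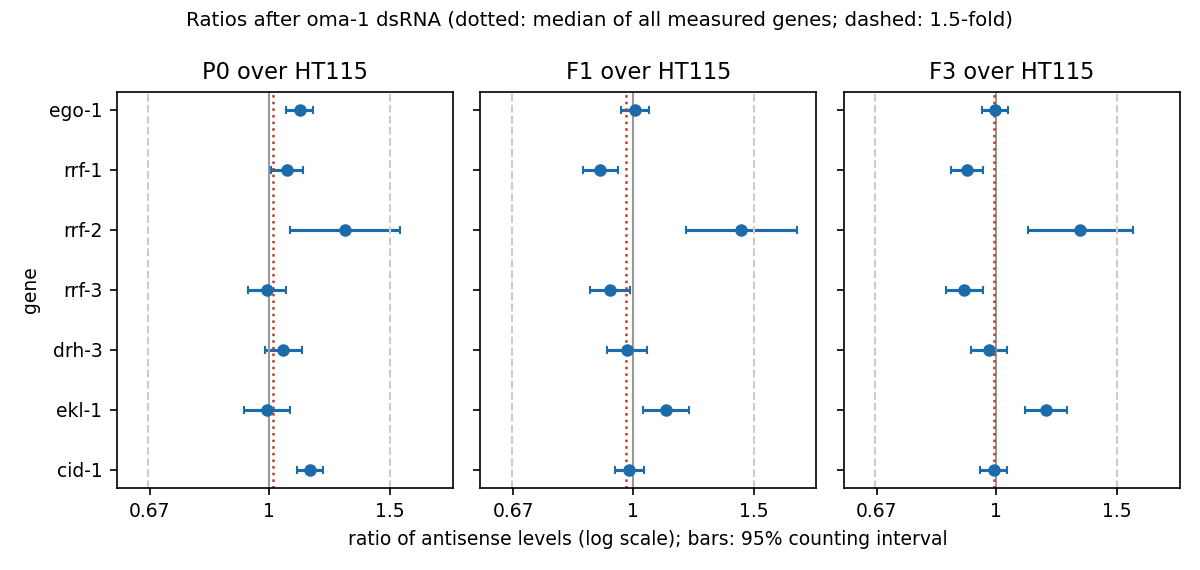
Ratio of the antisense level in P0, F1 and F3 to that on HT115 (log scale) for each gene, with exact conditional binomial 95% intervals that cover counting error only. The red dotted line is the median of all measured genes and the dashed grey lines mark 1.5-fold in either direction. All points lie inside the dashed lines, and rrf-2 lies farthest to the right, at 1.29, 1.44 and 1.33.

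Between successive generations, none of the genes differed by 1.5-fold either. F1 differed from P0 by that much in 4.38% of all measured genes, and F3 from F1 in 2.59%. Relative to P0, the F1 levels of cid-1 (0.862-fold, 0.821 to 0.905), rrf-1 (0.847-fold, 0.797 to 0.899) and ego-1 (0.910-fold, 0.867 to 0.955) were lower, and that of ekl-1 was higher (1.13-fold, 1.04 to 1.22). Between F3 and F1 the ratios ran from 0.921 to 1.06, and each interval held 1. With both strands summed, the median gene was at a log2 ratio of −0.15 in F1 over P0, and rrf-2 (−0.12) and ekl-1 (−0.10) turned in direction there. In F3 over F1 the median gene was at 0.15 and the 7 genes ran from 0.00 for drh-3 to 0.37 for ekl-1, with ego-1 (0.23), rrf-2 (0.21) and rrf-3 (0.16) turned in direction.

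After lin-15b RNAi, the levels of these genes were compared with the first untreated library on both strands, over the 45162 genes in both tables. None of the 6 genes that reached 25 CPM differed by 1.5-fold, against 19.9% of all measured genes. Of the markers measured in this comparison, 3 of 3 muscle and 2 of 2 intestine genes were past that limit upwards, unc-54 at 3.74-fold and vit-2 at 2.55-fold among them. Past it in either direction were 0 of 6 germline genes and 0 of 1 sperm gene. The summed both-strand level of the muscle list was 1655 CPM after lin-15b RNAi and 431 CPM in the first untreated library. The summed intestine list had 11280.1 CPM after lin-15b RNAi and 4731 CPM in the first untreated library. No muscle or intestine gene was at 0 in either library. The part of these sense reads in the both-strand ratios was not tested. The largest ratio was that of ekl-1, with 124 CPM after lin-15b RNAi and 88.6 CPM in the first untreated library, a ratio of 1.39 (1.28 to 1.52). The lowest were those of rrf-1, with 269 CPM after lin-15b RNAi and 334 CPM in the first untreated library (0.804-fold, 0.764 to 0.846), and cid-1, with 488 and 578 CPM in the same order (0.845-fold, 0.813 to 0.877). The germline polymerase gene ego-1 had 384 CPM after lin-15b RNAi and 383 CPM in the first untreated library. The polymerase gene rrf-2 was not measured here, with 112 reads after lin-15b RNAi and 139 reads in the first untreated library.

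The HT115 library and the first untreated library, both without RNAi, differed far more. On both strands, 35.4% of all measured genes were at least 1.5-fold higher on HT115 and 17% at least 1.5-fold lower. Of the 7 genes, 3 were past that limit upwards and 0 downwards. The level of ekl-1 was 1.96-fold (1.81 to 2.12), drh-3 1.82-fold (1.71 to 1.94) and rrf-2 2.18-fold (1.77 to 2.71) the first untreated library. That of rrf-3 was 1.41-fold (1.33 to 1.505), ego-1 1.23-fold (1.18 to 1.28), rrf-1 0.975-fold (0.929 to 1.02), and cid-1 was lower on HT115 at a log2 ratio of −0.32 (0.770- to 0.831-fold).

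Most of this picture depends on how the libraries are scaled, because the median gene was itself 1.24-fold higher on HT115, a log2 ratio of 0.31. Relative to that median, rrf-2 was 1.76-fold, ekl-1 1.58-fold, drh-3 1.47-fold, rrf-3 1.14-fold, ego-1 0.992-fold, rrf-1 0.786-fold and cid-1 0.645-fold. The share of all genes past 1.5-fold was then 22.01% higher and 25.8% lower. With median-of-ratios scaling it was 14.3% higher and 34.6% lower, with the median log2 ratio at −0.25, and with TMM scaling it was 14.8% higher and 34.0% lower, with the median at −0.23. Under median-of-ratios scaling 0 of the genes were past the limit upwards and rrf-1 and cid-1 past it downwards, with log2 ratios of −0.59 and −0.88. Under both scalings the directions of ego-1 and rrf-3 also turned. A scaling shifts all ratios of a comparison alike and leaves their order as it is, from rrf-2 as the highest to cid-1 as the lowest. The ribosomal RNA gene rrn-3.1, whose reads were 98.6% sense on HT115, also differed, with 35538 CPM on HT115 and 11929 CPM in the first untreated library on both strands, and the summed intestine list had 7414 CPM on HT115 and 4731 CPM in the first untreated library. The muscle list had 469 CPM on HT115 and 431 CPM in the first untreated library. The part of such reads in the ratios was not tested. One label names HT115 bacteria, while the growth notes of both samples name OP50, and the embryo steps in the notes and the number of listed genes (45510 for HT115, 45162 for the first untreated library) differ as well. With 1 library in each group, these differences cannot be told apart.

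The lin-15b RNAi library also differed widely from HT115 on antisense reads. Of all measured genes, 16.6% were at least 1.5-fold higher after lin-15b RNAi and 37% at least 1.5-fold lower. Of the 7 genes, 2 were past the limit, both lower after lin-15b RNAi. The level of rrf-2 was at 0.366 of its HT115 level (0.278 to 0.476) and drh-3 at 0.571 (0.530 to 0.614). The nucleotidyltransferase gene cid-1 was the one gene above its HT115 level, at 1.15-fold (1.10 to 1.203).

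The median gene was at 0.802 of its HT115 level after lin-15b RNAi. Relative to it, rrf-2 was at 0.456, drh-3 at 0.712, rrf-3 at 0.881, ekl-1 at 0.960, ego-1 at 1.05, rrf-1 at 1.07 and cid-1 at 1.44. With median-of-ratios scaling, 32.7% of all genes were higher and 16.2% lower, with the median log2 ratio at 0.20, and with TMM scaling 30.6% were higher and 17.9% lower, with the median at 0.15. Under either scaling cid-1 was past 1.5-fold upwards, with log2 ratios of 0.72 and 0.67, and rrf-2 was past it downwards. The drh-3 level, past the limit by CPM, was then within it. The directions of ego-1, rrf-1 and ekl-1 turned with these scalings, and that of rrf-3 with median-of-ratios scaling. The first untreated and lin-15b RNAi libraries list the same number of genes (45162, against 45510 for HT115), and both differed from HT115. No label assigns the libraries to batches. The effect of lin-15b RNAi and that of other differences between the libraries cannot be told apart in this comparison.

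Reads in the sense direction, which have the sequence of the transcript itself, were a minority for every gene. On HT115 they made up 5.84% of the reads of rrf-3, 6.71% of rrf-1, 7.45% of cid-1, 7.59% of ego-1, 9.13% of rrf-2, 10.3% of ekl-1 and 17.4% of drh-3. The median gene had 10.3% sense reads there, and drh-3 stood above it with an interval of 15.9% to 18.9%. In P0 the median gene had 16.4% sense reads, in F1 27.3% and in F3 13.6%. For ego-1 it was 10.2% in P0, 17.5% in F1 and 9.39% in F3.

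The helicase gene drh-3 had a larger sense share than the median gene in each of the libraries from HT115 to F3. It was 20.9% in P0 (19.3 to 22.6), 40.7% in F1 (38.8 to 42.6) and 23.1% in F3 (21.5 to 24.7). After lin-15b RNAi it was 14.5% (12.6 to 16.5), below the median gene, which had 18.8%. Such shares are not rare: on HT115, 26.8% of genes had a larger sense share than drh-3, and in F1 29.0% did. In reads, drh-3 had 185 sense reads after lin-15b RNAi and 444 on HT115, then 477 in P0 animals, 1046 in F1 and 612 in F3. Per 1000000 reads of both strands, the drh-3 sense level after lin-15b RNAi was 0.419 of that on HT115 (0.351 to 0.499), while the median gene was at 1.41-fold. In F1 it was 2.29-fold HT115 (2.04 to 2.56), near the median gene at 2.13-fold. No annotated gene overlaps drh-3.

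**Figure D4:**
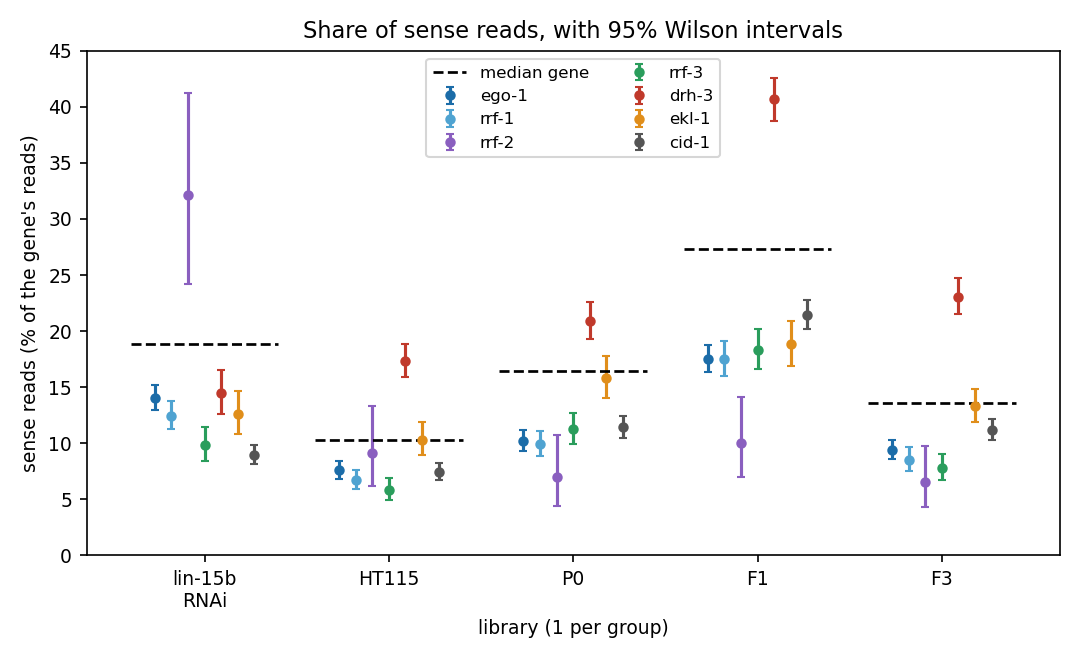
Share of sense reads of each gene (percent of its reads) in the 5 libraries with separate strands, with 95% Wilson intervals that cover counting error only. The black dashed lines give the median gene of each library. The drh-3 point lies above the line from HT115 to F3, with 40.7% in F1, and below it after lin-15b RNAi.

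The polymerase gene rrf-2 had 36 sense reads after lin-15b RNAi and 23 on HT115, then 18 in P0 animals, 27 in F1 and 21 in F3. Its sense share was 32.1% after lin-15b RNAi and 9.13% on HT115, then 6.95% in P0 animals, 10% in F1 and 6.54% in F3. On HT115 the interval of this share (6.16 to 13.3) held the median gene, at 10.3%. In F1 the share (6.96 to 14.2) was the lowest of the 7 genes, while the median gene was at 27.3%.

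The gene rrf-1 is the only one of the group with several lines in the count tables, one for each of its 3 transcripts F26A3.8a, F26A3.8b and F26A3.8c. The first 2 are coding and nearly full length, and F26A3.8c is a noncoding RNA of 695 bases that covers the last exons, 13.8% of the exon length of the gene. Of the rrf-1 reads on both strands, F26A3.8c took 13.4% after lin-15b RNAi (Wilson interval 12.1 to 14.8) and 7.52% on HT115 (6.64 to 8.51). For P0 it took 7.23% (6.32 to 8.26), for F1 7.12% (6.14 to 8.25) and for F3 5.84% (5.03 to 6.77). In the first untreated library it took 17.2% (15.98 to 18.4). The lin-15b RNAi and first untreated libraries thus lay above the HT115 to F3 libraries with no overlap of intervals. On antisense reads alone, F26A3.8c took 14.6% after lin-15b RNAi and 7.71% on HT115.

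Because the transcripts share exons, the share depends on how the authors divided shared reads, which the sources used here do not give. The largest change of any rrf-1 transcript from HT115 was 9.63 percentage points in the first untreated library, where the median of 1846 genes with several transcripts and at least 500 reads was 4.26 points and 18.8% of them changed more. After lin-15b RNAi it was 5.85 points, where the median of 1813 genes was 3.76 and 31.4% changed more.

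**Figure D5:**
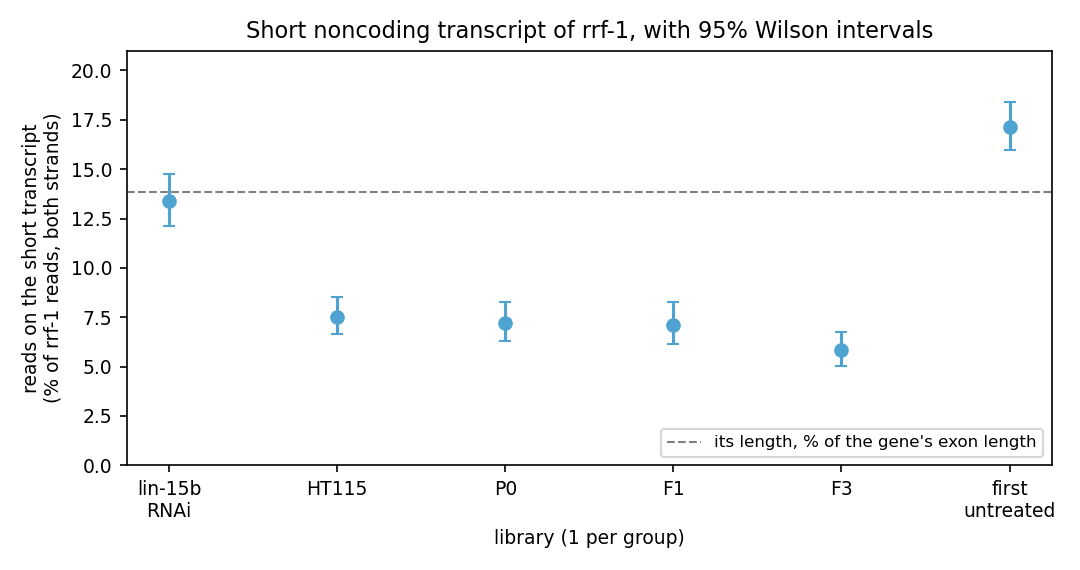
Share of rrf-1 reads, both strands, on the short noncoding transcript F26A3.8c in the 6 libraries, with 95% Wilson intervals that cover counting error only. The dashed line is the transcript's part of the exon length, 13.8%. The plotted shares are of the summed reads of transcripts that overlap, so even coverage need not give this value. Points above or below the line are therefore not gains or losses relative to length. The HT115, P0, F1 and F3 points lie between 5.84% and 7.52%, and those of the lin-15b RNAi and first untreated libraries lie at 13.4% and 17.2%.

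Neighbouring genes did not follow one pattern. F26A3.4, on the far side of ego-1 from rrf-1, had 25.1 antisense CPM after lin-15b RNAi and 72.5 on HT115, then 70.3 in P0 animals, 45.1 in F1 and 56.8 in F3, so that its lin-15b RNAi level was far lower relative to HT115 than that of ego-1. The cap-binding protein gene ncbp-2, 102 bases from rrf-1, had 47.2 CPM after lin-15b RNAi and 59.8 on HT115. Next to drh-3, D2005.7 had 464 CPM after lin-15b RNAi and 141 on HT115, opposite in direction to drh-3, while glna-3 on the other side stayed at or under 15.1 CPM. Beside rrf-2, Y47H10A.5 had 5.00 CPM after lin-15b RNAi, 19.9 on HT115 and 14.2 in F3. The anaphase-promoting complex gene emb-27, next to rrf-3, had 75.2 CPM after lin-15b RNAi and 187 on HT115.

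On either side of ekl-1, prpf-4 had 133 CPM after lin-15b RNAi and 213 on HT115, and F22D6.8 had 83.9 CPM after lin-15b RNAi and 89.4 on HT115. On either side of cid-1, emb-1 had 19.1 CPM after lin-15b RNAi and 39.6 on HT115, and pup-2 had 58.6 CPM after lin-15b RNAi and 69.1 on HT115. The gene pup-2 encodes another nucleotidyltransferase and lies 5412 bases from cid-1. The other two neighbours, M01G12.14 beside rrf-2 and T05C12.15 beside rrf-3, had at most 1 antisense read in any library. T05C12.11 overlaps the end of rrf-3 on the opposite strand and had at most 3 antisense reads in any library.

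For each gene, the 2 protein-coding genes with the most similar profile were found over the 5 libraries with separate strands, by the root mean square difference of centred log2 antisense levels. Each was compared with 4766 to 4767 genes. The closest to ego-1 were B0432.10 (0.0195) and nxf-2 (0.0249), an RNA export factor gene. The closest to rrf-1 were ints-7 (0.0179) and lin-49 (0.0214), and to rrf-3 nol-6 (0.0149) and klp-18 (0.0152), a meiotic kinesin gene. The closest to drh-3 were suf-1 (0.0123) and row-1 (0.0166), and to ekl-1 pas-4 (0.0192), a proteasome subunit gene, and pign-1 (0.0245). The closest to cid-1 were Y39A3CL.7 (0.0180) and T05F1.4 (0.0242). The polymerase gene rrf-2 had no match as close, with F41H10.4 at 0.0876 and frg-1 at 0.102. Its levels rest on 76 to 300 antisense reads, so counting error alone widens its differences. The genes compared were at 25 CPM or more in all 5 libraries, a level that rrf-2 did not reach after lin-15b RNAi. An unusual profile of rrf-2 is therefore not shown. The median difference over all genes was 0.233 to 0.644, depending on the gene. With 5 libraries such matches are descriptions of level profiles only.

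Within the group, ego-1 and rrf-1 had the most similar profiles, 0.0765 apart on the same scale, and ego-1 and rrf-3 were 0.0797 apart. The tandem pair thus had the smallest difference of all pairs, hardly below that of ego-1 and rrf-3, which lie on different chromosomes. Genes outside the group came closer, such as B0432.10 to ego-1 (0.0195). Reads that match both ego-1 and rrf-1 may have been counted on either gene, and their part in this similarity was not tested. The genes rrf-2 and cid-1 were the farthest apart, at 0.795.

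The other genes of the pathway were taken from 5 lists, with 38 genes in all, of which 35 reached 25 CPM on HT115. In the comparisons of P0, F1 and F3 with HT115, of F1 with P0 and of F3 with F1, 0 of these genes differed by 1.5-fold. Over all measured genes the share was 1.93% to 5.22% in these comparisons, so few such genes would be seen among 35 in any case. Per kilobase of exon on HT115, the 3 partner genes had a median of 92.1 CPM and the polymerase genes 63.8. The mutator complex list had a median of 104 CPM per kilobase (69.1 to 297). The Dicer and ERI list had 80.1 (24.7 to 174), the Argonautes 102 (0.964 to 713), the other nucleotidyltransferases 29.7 (5.07 to 146) and the further silencing factors 118 (26.6 to 318). The level of rrf-2 was thus lower per kilobase than every gene of the mutator, Dicer and ERI, and silencing factor lists.

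The most abundant genes of each list are given by level. The gene of WAGO-4 itself had 2256 to 2411 CPM over P0, F1 and F3 and 2400.5 CPM on HT115, and csr-1 had 1218 CPM in F3 and 1450 on HT115. Among mutator genes, the helicase gene mut-14 had 493 CPM in F3 and 519 on HT115, and mut-15 had 552 CPM in F3 and 480.2 on HT115. The Dicer gene dcr-1 had 259.5 CPM on HT115, and drh-1, a second Dicer-related helicase gene, had 279.5. The nucleotidyltransferase genes gld-2 and usip-1 had 405 and 352 CPM, and the granule genes znfx-1 and glh-1 had 922 and 820.0 CPM, all on HT115.

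Between HT115 and the first untreated library these lists held differences in both directions. Of the 35 measured genes, 8 were at least 1.5-fold higher on HT115 and 7 at least 1.5-fold lower, with a median log2 ratio of 0.25. Over all measured genes those shares were 35.4% and 17%. These values are by CPM and depend on the scaling. With median-of-ratios scaling, 14.3% of all measured genes were higher and 34.6% lower. That scaling lowers every ratio of this comparison alike, so fewer list genes would be higher and more lower. By CPM, the higher list genes included smut-1, a relative of mut-14, at a log2 ratio of 1.77, and csr-1 at 0.97. The lower ones included mut-14 at −1.48, mut-15 at −1.51, dcr-1 at −1.42, the gene of its double-stranded RNA-binding partner rde-4 at −1.62 and elli-1 at −2.61. None of the 7 polymerase and partner genes differed as much downwards on this scale. The named lower genes are among the lowest of the lists, and 17% of all measured genes were past the limit downwards. The comparison therefore says nothing particular about the 7 genes. After lin-15b RNAi, 1 of these genes was higher and 2 were lower than in the first untreated library, where 19.9% of all measured genes differed in either direction. Relative to HT115, 7 were higher and 7 lower after lin-15b RNAi, against 16.6% and 37% of all measured genes. These counts are also by CPM and depend on the scaling.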

How the data were processed

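The authors deposited 1 table per library with whole-number counts of reads per annotated transcript, not normalized. Bowtie2 is the one tool named in the submitters' processing notes, and its version, the genome build, the annotation used and how reads were counted were not given in the sources used here. Count columns, which carry no names, were read as sense and antisense from microRNA lines, and the single column of the first untreated library as both strands, because microRNAs made up 0.279% of its reads and at least 0.446% of those of the other libraries, while 0.202% to 0.417% of microRNA reads were antisense where strands are separate. No label states this, and each comparison with that library depends on it. Per library, 3 lines without a gene, holding 10 to 29 reads, were left out.

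Each gene's transcript counts were added up and divided by the library's antisense total, or by the total of both strands where stated. Comparisons with the first untreated or lin-15b RNAi library used the 45162 genes present in both tables. A gene was measured at 25 CPM in the higher library and past the limit at 1.5-fold. Levels have exact Poisson, ratios exact conditional binomial and shares Wilson intervals. No sequence was used, and lengths and positions come from the Ensembl annotation of WBcel235, in which 44852 of the genes were found. The genes, lists and comparisons were chosen with earlier results of these data known. The named genes are the 7 genes, their neighbours, their 2 closest profiles, the 2 most abundant genes of each of the 5 lists, the RNAi targets and, between HT115 and the first untreated library, list genes picked after their values were seen (smut-1, rde-4 and elli-1), as were the markers unc-54 and vit-2. The calls and intervals were tested on simulated counts. Python 3.11.15 with numpy 2.4.6, pandas 2.3.3 and scipy 1.17.1 was used, and edgeR 4.0.16 for TMM factors only.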

Additional observations from a re-analysis of the deposited data

Results flagged for a closer look

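The rrf-1 ratios to HT115 lay on opposite sides of 1 in different generations: 1.06 in P0 (1.004 to 1.12), 0.898 in F1 (0.846 to 0.952) and 0.906 in F3 (0.858 to 0.956). The intervals cover counting error only, the generations share the HT115 library, and with 1 library per group the difference between generations was not tested. With both strands summed, the P0 log2 ratio of rrf-1 was −0.03, on the same side as F1 (−0.46) and F3 (−0.22).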

How the results depend on the processing

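With 1 library per group no value can be tested across libraries, no library can be left out and counting intervals do not cover the spread between animals or precipitations. No paired analysis was possible because each group holds 1 library. The strand of the first untreated library is read from the data and limits every comparison with it, and rrf-2 rests on 76 to 300 antisense reads.

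Of 69 recomputed counts of genes past 1.5-fold, 57 stayed within 1.5 times the reported count in each direction and 12 did not. A part of the 57 could not have changed. Where all of the genes were already measured, a lower minimum CPM leaves the count as it is. Where none passed 1.5-fold, none can pass 2-fold. The tally is therefore not a measure of how stable the counts are. With the first untreated library in place of HT115, on both strands, 3 genes passed the limit in P0, 4 in F1 (3 higher, 1 lower) and 3 in F3, against 0 in each with HT115. With median-of-ratios scaling, 1 gene passed it in F1 over HT115 (rrf-2), against 0. With HT115 in place of the first untreated library, on antisense reads, 2 genes were lower after lin-15b RNAi, against 0. For HT115 over the first untreated library, with 3 genes higher, the count was 2 with median-of-ratios scaling (both lower), 1 with TMM scaling (lower), 1 at 2-fold, and 3 relative to the median gene (2 higher, 1 lower). For lin-15b RNAi over HT115, a comparison added after the data were seen as was the median-gene setting, with 2 genes lower, it was 2 with median-of-ratios and 2 with TMM scaling (1 higher and 1 lower in each) and 1 at 2-fold. In each comparison the cause was not tested beyond the setting itself. Of 308 recomputed log2 ratios of single genes, 204 moved by less than their counting interval and 104 by more. The order per kilobase on HT115, levels per longest transcript and antisense shares stayed within their intervals in all 12 recomputed values. The longest transcript is as long as the exons for ego-1, rrf-3, drh-3, ekl-1 and cid-1. It is nearly so for rrf-1 (5024 against 5025 bases) and rrf-2 (4844 against 4860 bases). Levels per longest transcript could therefore hardly move.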
